A study of Zea mays with 28 samples.

Results

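The regions described here are places in the maize genome where chromatin immunoprecipitation called both DDM1 paralogues, ZmDDM1A and ZmDDM1B, and did not call ZmAGO4. The peaks of 6 lists from WT embryos were merged wherever they shared at least 1 bp, which gave 122155 merged regions. A region was kept when it held a peak of all 4 DDM1 lists and of neither ZmAGO4 list. This left 2527 regions, or 2.07% of all merged regions. The regions were thus chosen by the measured WT peak calls of all 3 proteins, and every WT value given for them is a description with no test.

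All libraries came from developing embryos of the inbred line W22 at 18 days after pollination. The WT groups were ChIP with antibodies against ZmDDM1A, ZmDDM1B and ZmAGO4, which the submitting laboratory made itself, and each had 2 libraries. Each DDM1 antibody was also used on embryos mutated in its own gene, zmddm1a for ZmDDM1A and zmddm1b for ZmDDM1B, with 2 libraries each, and the labels do not say how these alleles were made. The labels give no separate plants for the replicates, so p-values between libraries measure a spread that may be technical. The libraries of input, mRNA-seq, H3K9me2 and IgG were left unanalysed here, so the tissue was not checked against marker genes.

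DDM1 is a SNF2-type chromatin remodeller that plants need to keep DNA methylated, above all at transposons in compact chromatin. ZmDDM1A and ZmDDM1B are its maize paralogues. AGO4 is an Argonaute protein that carries small RNAs to the chromatin in RNA-directed DNA methylation, a pathway that works mainly at transposon edges and beside genes in maize. Places with both remodellers and no ZmAGO4 peak bear on how far the paralogues are called apart from that pathway.

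The ZmDDM1A lists of WT held 45957 and 45011 peaks. The ZmDDM1B lists had 56570 and 53298, and ZmAGO4 had 99625 and 98086. The zmddm1a lists held 817 and 883 peaks and the zmddm1b lists 1870 and 766, far fewer than in WT. Read depth is not given in the lists. The smallest recurring background at a summit, which scales with depth, was recovered from the deposited values. It was 3.41 and 3.57 reads in the WT ZmDDM1A libraries, 2.79 and 2.73 in ZmDDM1B, and 7.72 and 6.93 in ZmAGO4. The ZmAGO4 lists thus had both the most peaks and the highest such floor.

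Most of the places that held both paralogues also held ZmAGO4. Of 28013 regions with a peak in all 4 DDM1 lists, 24115 (86.1%) had a peak in both ZmAGO4 lists, 1371 (4.89%) in 1 of them and 2527 (9.02%) in neither. Among the regions without any ZmAGO4 peak, 2527 had all 4 DDM1 lists, while 866 had only the ZmDDM1A lists and 2565 only the ZmDDM1B lists. The shared class was thus about as large as the ZmDDM1B class and larger than the ZmDDM1A class.

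**Figure D1:**
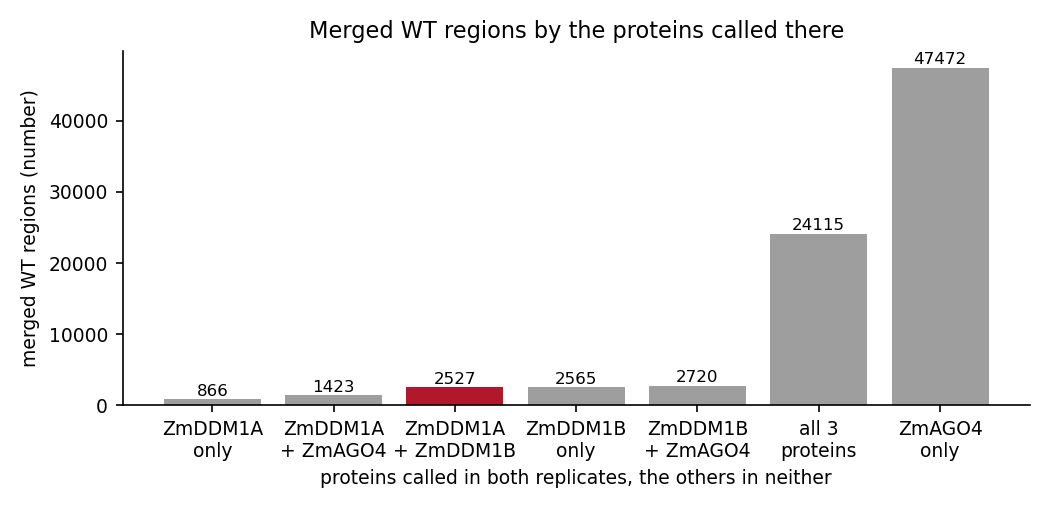
Number of merged regions by the combination of proteins called in both WT replicates (bars, linear axis from 0). The 2527 regions with both paralogues and no ZmAGO4 peak stand beside 24115 with all 3 proteins, 2565 with ZmDDM1B only and 866 with ZmDDM1A only.

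The regions were short and usually carried a single peak of each library. Their median width was 587 bp, with quartiles of 458.5 and 790.5 bp and a range of 241 to 3284 bp. Regions with all 3 proteins had a median merged width of 1613 bp, which the wide ZmAGO4 peaks enter, while ZmDDM1A-only and ZmDDM1B-only regions measured 362 and 375 bp. One peak per list was found in 2224 regions (88.0%), and 303 (12.0%) held more than 1 peak of some list.

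Within a region the paralogues were called at nearly the same bases. In 2470 regions (97.7%) at least 1 base lay in peaks of all 4 lists, and in the other 57 no base did. From the ZmDDM1A summit to the ZmDDM1B summit the median distance was 60 bp in replicate 1 libraries and 62 bp in those of replicate 2. Between replicates of the same antibody the medians were 42 bp for ZmDDM1A and 36 bp for ZmDDM1B. The distance between paralogues was therefore slightly longer than that between repeats of 1 antibody.

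All 4 summits fell within 100 bp in 1088 regions (43.1%) and within 200 bp in 1897 (75.1%), and in 39 they spread over more than 1000 bp. In regions with all 3 proteins the paralogues' summits were 55 and 56 bp apart, whereas ZmDDM1A and ZmAGO4 summits were 280 and 286 bp apart and ZmDDM1B and ZmAGO4 summits 308 and 313 bp. Where ZmAGO4 was called, its summit was thus farther from the DDM1 summits than these were from each other.

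The fold enrichment over background that the authors deposited for each peak placed the regions near the middle of each DDM1 list. The median fold in the ZmDDM1A libraries was 3.87 (quartiles 3.18 and 4.70) in replicate 1 and 3.82 (3.16 and 4.64) in replicate 2. In the ZmDDM1B libraries it was 4.38 (3.51 and 5.58) and 4.33 (3.46 and 5.48). Ranked within its own list, the median region stood at percentile 46.6, 46.9, 50.8 and 49.7 in the order ZmDDM1A replicates 1 and 2, then ZmDDM1B replicates 1 and 2.

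Regions with all 3 proteins had higher medians in every one of these libraries, 4.53 and 4.46 for ZmDDM1A and 5.45 and 5.33 for ZmDDM1B, at percentiles of 63.6, 63.4, 70.7 and 69.3. Regions of 1 paralogue without ZmAGO4 had lower ones, 3.49 and 3.31 for ZmDDM1A only and 3.63 and 3.66 for ZmDDM1B only. The regions with both paralogues thus lay between these classes, and their quartiles overlapped both. The differences were not tested, since the fold of a peak helps to decide whether it is listed.

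Few reads stood behind each of these folds. The recovered pileup had a median of 43 reads in both ZmDDM1A libraries and of 50 and 44 reads in the ZmDDM1B libraries. The matching backgrounds were 10.3, 10.4, 10.4 and 9.25 reads. Across the 2527 regions, Spearman's rho of the folds was 0.47 between ZmDDM1A replicates, 0.36 between ZmDDM1B replicates and 0.27 to 0.31 between a ZmDDM1A and a ZmDDM1B library. The points share their genome positions and the libraries, and the values are descriptions.

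**Figure D2:**
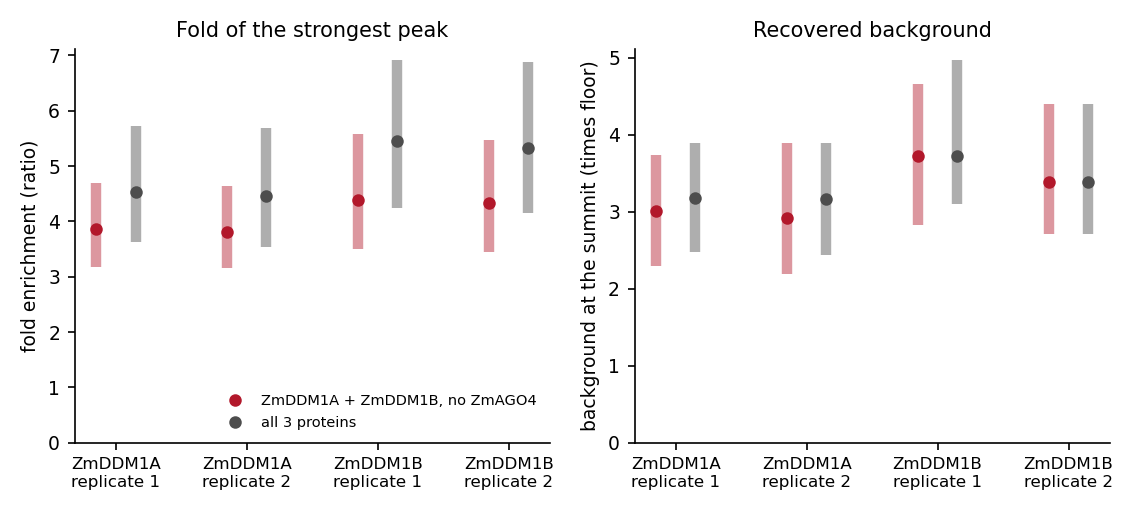
Regions with both paralogues and no ZmAGO4 and regions with all 3 proteins in each WT DDM1 library (dots are medians, bars span the quartiles). The left panel gives the deposited fold of the strongest peak, and the right panel the recovered background at its summit in times the floor. The median folds of the 2527 regions, 3.87, 3.82, 4.38 and 4.33, lie under those of regions with all 3 proteins.

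The 10 strongest of the regions without a peak in a mutant were moderately enriched. Of the 10, 8 lay within 2784 bp of a ZmAGO4 peak. Among all 2527 regions 61.0% lay within 2 kb of one and 78.9% within 5 kb, so this nearness was not particular to the strongest. The first was chr9:22152070-22152889, with ZmDDM1A folds of 9.48 and 7.43 and ZmDDM1B folds of 8.19 and 7.49. It lay 2784 bp from the nearest ZmAGO4 peak. At chr2:214223691-214224039 the folds were 9.97, 8.23, 10.1 and 7.02, and ZmAGO4 was 223 bp away. At chr3:2704517-2705071 they were 6.88, 7.43, 8.77 and 8.21, and ZmAGO4 was 285 bp away. In all of these the 4 libraries gave folds of like size, which a ranking by the smallest of the 4 folds favours.

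The next regions by the same rule were chr10:132199066-132199383, chr6:160993205-160993595, chr7:259738-260141, chr4:217340046-217340391, chr10:16692298-16692600, chr7:14298376-14298688 and chr1:211799894-211800250. The regions chr7:259738-260141 and chr10:16692298-16692600 stood far from any ZmAGO4 peak, at 30044 and 30877 bp. The first of them had folds of 6.42, 6.61, 8.90 and 6.65 on 79, 86, 116 and 104 reads. Genes and sequence at the named positions are not given, since no genome of this build was used. The widest regions were chr7:166769563-166772846 (3284 bp), chr1:56144695-56147870 (3176 bp) and chr2:214683453-214686127 (2675 bp), with folds from 2.82 to 5.78.

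The edge of the rule was set by weak peaks. The smallest of a region's 4 DDM1 folds had a median of 3.14 and ran from 1.23 to 7.43, and the smallest −log10 q had a median of 7.48 and a minimum of 2.00, the lowest value listed. Just inside stood chr6:166871148-166871583, chr7:9661069-9661495 and chr9:4092854-4093258, each with a ZmDDM1A replicate 2 fold of 2.27 at a −log10 q of 2.00. Just outside stood chr3:225400695-225401821, with a ZmAGO4 replicate 2 fold of 1.69 at 2.00, chr5:213694160-213694705, with a replicate 1 fold of 1.82 at 2.01, and chr4:95006950-95007354, with a replicate 1 fold of 1.67 at 2.02.

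The 862 regions that missed the rule through ZmAGO4 replicate 1 alone had a median ZmAGO4 fold of 2.40, and the 509 that missed it through replicate 2 alone had 2.44. Where both ZmAGO4 lists had a peak beside all 4 DDM1 lists, the medians were 9.27 and 9.52. The peaks that put regions just outside were thus weak by comparison. An absent call also has a limit of detection. At backgrounds of 2 to 4 times the floor, where the DDM1 background of most regions lay, the lowest listed ZmAGO4 folds were 1.64 and 1.66, and 5% of listed peaks were under 2.27 and 2.33. Below 1.64 and 1.66 no ZmAGO4 peak was listed at such a background, and weaker enrichment there was not detectable. These values are the lowest over the whole range of 2 to 4 times. At other backgrounds the limit differed. At 0.9 to 1.1 times the floor it was higher, with lowest listed ZmAGO4 folds of 2.29 in replicate 1 and 2.40 in replicate 2. At some other backgrounds lower folds were listed.

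The regions stood close to ZmAGO4 peaks although they held none. The median distance to the nearest ZmAGO4 peak was 1164 bp, with quartiles of 416.5 and 4107.5 bp. Of the regions, 742 (29.4%) had one within 500 bp, 1171 (46.3%) within 1 kb and 2215 (87.7%) within 10 kb. Of the chromosome length outside ZmAGO4 peaks, 4.43% lay within 500 bp of one, 7.91% within 1 kb and 42.7% within 10 kb. Neighbouring peaks and the uneven density along chromosomes enter both figures, and no test was made, since the rule sets this distance.

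ZmAGO4 was usually on one side only at short range. Peaks on both sides within 1 kb flanked 158 regions (6.25%), and 1013 (40.1%) had one on a single side. Within 10 kb 54.5% had ZmAGO4 on both sides. Among the 1013 regions, the DDM1 summit lay on the side of the region's midpoint facing ZmAGO4 in 48.6% and 46.8% for ZmDDM1A and in 50.8% and 49.95% for ZmDDM1B. The exact 95% intervals cover counting error only. They ran from 43.7% to 49.9% in ZmDDM1A replicate 2, the lowest, and from 47.7% to 54.0% in ZmDDM1B replicate 1, the highest. Regions are not replicates, and these summits come from the lists that chose the regions, so no test against 50% was made.

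ZmDDM1B-only regions lay about as near to ZmAGO4, with a median of 1237 bp and 45.5% within 1 kb, and ZmDDM1A-only regions lay farther, with 2763.5 bp and 34.3%. The region nearest to a ZmAGO4 peak, chr2:3023128-3023967, touched it without sharing a base, and chr2:107535641-107536135 and chr7:53417583-53419102 lay 1 and 3 bp from one. These regions had folds from 2.63 to 9.07, and the absence of ZmAGO4 from them rests on the called peak ends.

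The nearest ZmAGO4 peak belonged to a region with no DDM1 list for 1133 regions (44.8%), to a region with all 6 lists for 822 (32.5%) and to one with some DDM1 lists for 572 (22.6%). Among all 101514 regions with a ZmAGO4 peak these kinds made up 56.1%, 23.8% and 20.2%. The share next to regions of all 3 proteins was therefore higher than the share of such regions in the genome, and these regions are also the wider ones.

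**Figure D3:**
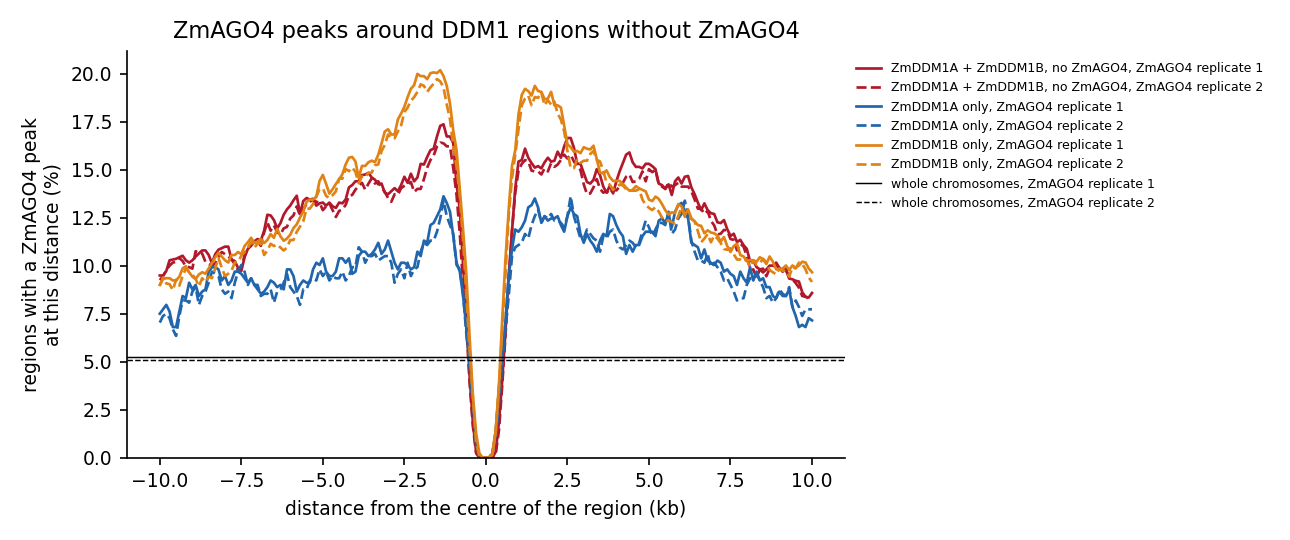
Share of regions with a ZmAGO4 peak at each distance from the region's centre (horizontal axis in kb, 100 bp steps, solid and dashed lines for ZmAGO4 replicates 1 and 2). The dip to 0 at the centre is set by the rule, and the share for the 2527 regions reached 17.4% and 16.4% and was 9.04% and 8.82% at 10 kb, over chromosome levels of 5.23% and 5.10%.

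Around the regions ZmAGO4 formed a broad shoulder. Averaged between 1 and 2 kb from the centre, 15.9% of regions had a ZmAGO4 peak in replicate 1 and 15.3% in replicate 2. Between 4 and 6 kb the shares were 14.1% and 13.8%, and between 8 and 10 kb 10.0% and 9.80%. Whole chromosomes had 5.23% and 5.10%. Around ZmDDM1B-only regions the share went from 19.2% and 18.7% between 1 and 2 kb to 13.7% and 13.4% between 4 and 6 kb. ZmDDM1A-only regions had 12.4% and 11.9%, then 10.8% and 10.5%. Regions with all 3 proteins, which hold ZmAGO4 themselves, had 27.5% and 26.8% between 1 and 2 kb. They had 14.8% and 14.4% between 4 and 6 kb and 10.9% and 10.6% between 8 and 10 kb. In these outer bands the shares of the 2 classes were thus close. The shapes of the classes were not tested against each other.

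The mutant lists were not used to choose the regions, and they met few of them. A region was counted as met when a mutant peak overlapped a WT peak of the same antibody in it. The zmddm1a libraries met 18 regions (0.712%, exact 95% interval 0.423% to 1.12%) and 25 (0.989%, 0.641% to 1.46%). Over all merged regions with both WT ZmDDM1A lists the shares were 2.39% and 2.2%. The zmddm1b libraries met 18 regions (0.712%, 0.423% to 1.12%) and 5 (0.198%, 0.0643% to 0.461%), against 2.87% and 0.528% over all merged regions with both WT ZmDDM1B lists. Each mutant library therefore met a smaller share of the regions than of all regions of its antibody.

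Of the regions with all 3 proteins, the same libraries met 2.60%, 1.97%, 3.52% and 0.444%. The share was lower in the regions without ZmAGO4 in 4 of 4 libraries, by a mean of −1.48 ± 1.11 percentage points (SD, n = 4). An exact two-sided sign-flip test over the libraries gave p = 0.13, the smallest that 4 libraries allow, so the threshold of 0.05 could not be reached. The WT peaks of the regions were also weaker than those of regions with all 3 proteins. Within 5 groups of like WT fold the sign depended on the fold. In the lowest group, which held the most regions without ZmAGO4 (812 by ZmDDM1A fold and 949 by ZmDDM1B fold), these were met more often than regions with all 3 proteins in 4 of 4 libraries, 0.369% against 0.332%, 1.72% against 0.199%, 0.948% against 0.320% and 0.316% against 0.0228%. In the highest group, with 165 and 139 of them, they were met less often in 4 of 4, at 3.03% against 8.19%, 3.03% against 6.70%, 0.719% against 10.4% and 0% against 1.48%. The lowest group changed without the regions of high background described further on. There the zmddm1a libraries met regions without ZmAGO4 less often, 0.126% against 0.332% and 0.126% against 0.199%. The zmddm1b libraries still met them more often, 0.646% against 0.273% and 0.108% against 0.0228%. These shares rest on very few met regions. Over all fold groups the libraries met 18, 25, 18 and 5 of the regions without ZmAGO4. The sign within a fold group can thus turn on single regions, and it was not tested.

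With the groups weighted by the number of regions without ZmAGO4 in each, an alternative added after seeing the data, the differences were −0.63 and 0.04 points in the zmddm1a libraries and −0.90 and 0.02 in the zmddm1b libraries. The mean was −0.37 ± 0.47 points (SD, n = 4), lower in 2 of 4 libraries (exact sign-flip p = 0.5). At matched WT fold the lower share was thus not found in every library. An equal weight for each group, which gives the few regions of high fold as much weight as the many of low fold, gave −1.24 points.

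No mutant peak was found in 2473 of the regions (97.9%). At least 1 mutant library met 54 (2.14%), where 6.81% of the regions with all 3 proteins and 6.26% of all regions with the 4 DDM1 lists were met. Both zmddm1a libraries met 5 regions (0.198%), against 1.05% of all regions with both WT ZmDDM1A lists. Both zmddm1b libraries met 4 (0.158%), against 0.347% of all regions with both WT ZmDDM1B lists. In both mutants 3 were met (0.119%), against 0.35% of all regions with the 4 DDM1 lists. The mean share of the regions met per library was 0.851 ± 0.196% (SD, n = 2) in zmddm1a and 0.455 ± 0.364% (SD, n = 2) in zmddm1b. An exact two-sided permutation test of 2 against 2 libraries gave p = 0.667 for this difference of 0.396 points, and it cannot go below 0.33. The difference was 0.653 points without zmddm1b replicate 1, 0.139 without zmddm1b replicate 2, 0.257 without zmddm1a replicate 2, 0.244 without WT ZmDDM1A replicate 2 and 0.20 without the regions of high background described further on.

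**Figure D4:**
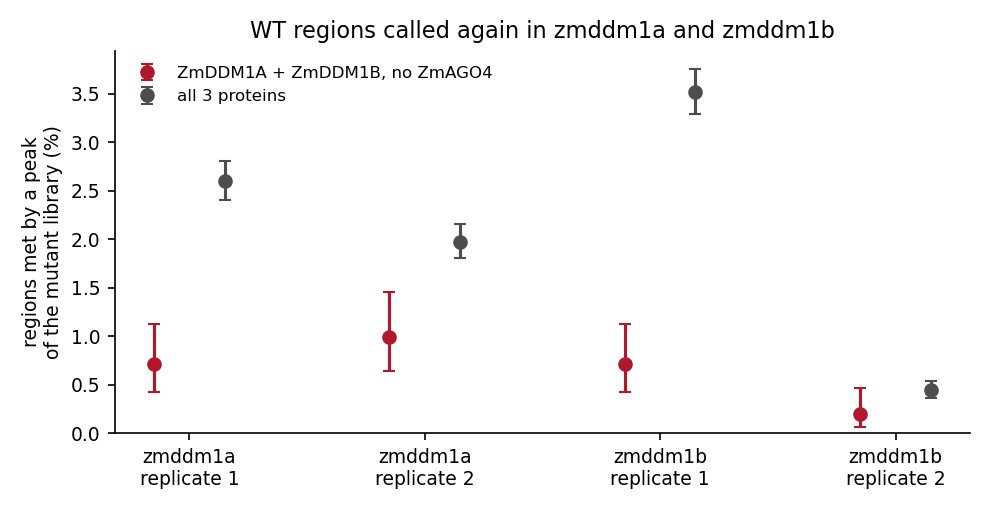
Share of regions met by a peak of each mutant library, with exact 95% intervals (vertical axis in percent from 0). In all 4 libraries the regions with both paralogues and no ZmAGO4, at 0.712%, 0.989%, 0.712% and 0.198%, stand under the regions with all 3 proteins.

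The regions that both zmddm1a libraries met were of different kinds. At chr6:4891037-4891740 the WT ZmDDM1A folds were 11.8 and 12.2, and the mutant folds were 11.1 and 9.96, while the ZmDDM1B folds were 4.03 and 3.31. At chr1:290353924-290354708 ZmDDM1A had 8.94 and 7.29 in WT and 4.52 and 6.88 in zmddm1a, and at chr2:65740773-65741821 it had 10.1 and 6.13 in WT and 3.83 and 3.55 in the mutant. In these places the WT ZmDDM1A folds exceeded the upper quartiles of the class, 4.70 and 4.64, and no zmddm1b library had a peak.

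The other such regions, chr2:157584909-157585365 and chr6:13591176-13591610, had WT ZmDDM1A folds of only 1.98 and 1.63 and of 2.90 and 1.85. Their mutant folds were 3.51 and 3.04 at the first and 1.71 and 2.17 at the second, and zmddm1b replicate 1 also met both, at 1.70 and 2.00. Their background was 17.9 and 35.5 times the floor.

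Both zmddm1b libraries met chr3:122677328-122677879, with WT ZmDDM1B folds of 4.88 and 5.05 and mutant folds of 5.75 and 4.91. They also met chr7:56644730-56645456 (2.70 and 2.94 in WT, 4.00 and 4.29 in the mutant) and chr2:91757762-91758175 (4.76 and 5.27 in WT, 3.42 and 7.84 in the mutant). The last, chr2:223151769-223152036, had 2.45 and 2.25 in WT and 2.93 and 4.79 in zmddm1b, a peak of fold 2.95 in zmddm1a replicate 2, and a background of 18.8 times the floor. Folds of different lists are set side by side here and were not compared.

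A small group of regions had a very high background. The background at the summits was at least 10 times the floor in 26 of the regions (1.03%) and in 34 of those with all 3 proteins (0.141%), and the median over all 2527 was 3.28 times. In these 26 the background ran from 10.3 to 99.98 times the floor and the median folds were low, at 2.22, 1.87, 1.91 and 1.99. Of the 26, 11 were on chromosome 6, where 9 lay between 12751718 and 14255766, and 6 were on chromosome 7, where 3 lay between 56637828 and 56663240. The regions farthest from any ZmAGO4 peak were in the first cluster, at chr6:12751718-12752568 (713875 bp), chr6:12813000-12813426 (653017 bp) and chr6:12821152-12821502 (644941 bp).

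Mutant peaks met 14 of these 26 regions, 13 of them in zmddm1a replicate 2, which is 13 of the 25 regions that library met. Without regions of such background, 40 of 2501 (1.60%) were met, and the shares by library were 0.640%, 0.480%, 0.600% and 0.120%, against 2.58%, 1.97%, 3.50% and 0.440% of the regions with all 3 proteins. The mean difference was then −1.66 points and lay below 0 in 4 of 4 libraries (exact sign-flip p = 0.13). Weighted by fold group as above it was −0.55 ± 0.39 points (SD, n = 4), also below 0 in 4 of 4, with −0.06 points in zmddm1b replicate 2 the closest to 0.

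The distance to ZmAGO4 went along with the place on the chromosome. Of the regions within 500 bp of ZmAGO4, 53.4% lay in the outer 40% of their chromosome (the first and last 20% of its length). The share was 58.2% from there to 2 kb, 63.5% from 2 to 10 kb and 29.5% (exact interval 24.5% to 34.9%) for the 312 regions over 10 kb away. The median smallest fold was nearly level over these distances, at 3.10, 3.10, 3.19 and 3.27, and so was the median width, at 566, 591, 601 and 590.5 bp. Mutant peaks met 4, 21, 11 and 18 regions (0.539%, 2.63%, 1.63% and 5.77%). Of the 26 regions of high background, 18 were over 10 kb from ZmAGO4, and mutant peaks met 10 of these. Of the other 294 regions over 10 kb away, 8 (2.72%) were met, and 27.9% lay in the outer 40%.

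Along the chromosomes the regions as a whole followed those with all 3 proteins. The outer 40% held 54.6% (exact interval 52.7% to 56.6%) of the regions and 55.5% of those with all 3 proteins, and the share was above 40% on 9 of 10 chromosomes, with chromosome 4 at 39.3%. On 2 of 10 chromosomes it was above that of regions with all 3 proteins. The outer 20% held 34.6% against 31.4%. The middle 4 of 10 equal bins held 29.8% of the regions, 25.9% of those with all 3 proteins and 54.5% of the regions over 10 kb from ZmAGO4. Against regions with all 3 proteins, shares were larger in the end bins and in bins 4 to 6. In bin 7 the share was smaller, 8.55% against 9.59%. All regions with a ZmAGO4 peak had 29.1% in the middle 4 bins, close to the 29.8% of the regions without ZmAGO4. The regions away from ZmAGO4 lay mostly mid-chromosome. These differences were not tested.

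**Figure D5:**
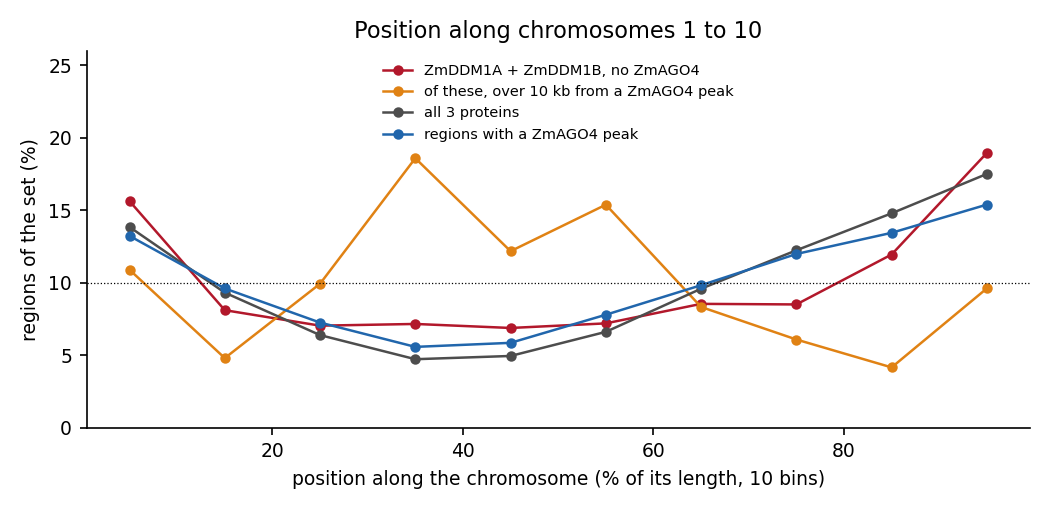
Share of each class in 10 equal bins of chromosome length, over chromosomes 1 to 10 (percent of the class, dotted line at an even spread of 10%). The 2527 regions rise to 15.6% and 19.0% in the end bins, while those over 10 kb from ZmAGO4 reach 18.6% in bin 4.

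Chromosome 5 had the most regions per length, 1.5 per Mb, and chromosome 8 the fewest, 0.939 per Mb. For every 100 regions with all 3 proteins there were 12.8 on chromosome 6 and 7.81 on chromosome 8. The number per chromosome ran from 416 on chromosome 1 to 159 on chromosome 10. The 11 regions of high background on chromosome 6 are part of its 242.

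The regions were mostly isolated from each other. The nearest other one lay a median of 175711 bp away, and 439 (17.4%) had one within 10 kb. Grouped at gaps of up to 10 kb, 2088 stood alone, and there were 186 groups of 2, 21 of 3 and 1 of 4, at chr6:148053380-148058920 over 5.54 kb, which no mutant list met. The nearest region with all 3 proteins lay a median of 7873 bp away, within 5 kb for 42.6% and within 10 kb for 54.4%. For a region with all 3 proteins the median distance to the nearest other of its kind was 10255 bp. The upper quartiles were in the other order, 45239 bp for the regions without ZmAGO4 and 42552 bp for those with all 3 proteins, so neither class was nearer throughout.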

How the data were processed

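The series holds 28 libraries, of which 10 ChIP peak lists (6 WT, 4 mutant) were analysed. Per the submitters' processing notes, the tools were MACS2 2.1.2, Bowtie2, Trim Galore, Cufflinks 2.2.1, TopHat2 2.0.10 and Picard, with build B73 RefGen_v4. The sources used here do not give their roles, nor the control and settings of the peak calls. W22 reads on a B73 assembly cannot show sequence that B73 lacks. Each deposited list belongs to 1 library, with no pooling. The fold that the authors deposited is a ratio at the summit, used only within a list. The authors gave the p-value and q-value of a peak as −log10, and no list goes under a −log10 q of 2.00. The deposited score column was not used, and the deposited summit offsets gave summit positions. Coordinates are counted from 1.

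Peaks sharing at least 1 bp were merged, and touching peaks were not. Pileup and background were recovered from fold, read as pileup + 1 over background + 1, together with the p-value, read as a Poisson tail. A whole-number pileup matched 99.997% to 100% of WT summits within 0.001. The floor is the smallest background found in at least 0.1% of a list's peaks. Recovery and overlap were tested on simulated data. Python 3.11.15, numpy 2.4.6, pandas 2.3.3, scipy 1.17.1 and matplotlib 3.10.9 were used. Intervals of shares are Clopper-Pearson (exact, 95%) and take in counting error alone. Chromosome lengths are the largest peak end found. Where a region held several peaks of a list, the highest fold and −log10 q are given, and the peak of highest −log10 q gave the summit and pileup. The medians, quartiles and percentiles of fold by library over a whole class also use the fold of that peak.

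The regions and rules were chosen with earlier results of these data known. Named regions were the 10 with the highest smallest WT fold and no mutant peak, up to 5 met by both libraries of each mutant, any met in both mutants, the 3 widest, farthest from and nearest to ZmAGO4, and the 3 just inside and just outside the rule. Alternatives were stricter peak thresholds, other merging and overlap rules, replicates left out and a replicate block. The replicate numbers gave no sign of pairing: same-numbered libraries of the 2 mutants shared 2 and 1 of the regions they met, and differently numbered ones 0 and 3.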

Additional observations from a re-analysis of the deposited data

How the results depend on the processing

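Of 114 alternative values over 7 results, 82 stayed within the spread or on the same side of the test, 32 moved and 0 changed sign. The values counted as stayed include large shifts in the number of regions, reported as 2527. It was 1911 at a −log10 q of at least 5 in the WT DDM1 lists and 3516 without ZmAGO4 replicate 1. Part of this tally was fixed in advance. The tests of the mutant results had too few libraries to pass the threshold, so no alternative could change the side of the test. The number of regions, the shares, widths and distances cannot be negative. Only the mutant differences could have changed sign, and they kept it. The number of regions was 4471 when ZmAGO4 had to cover 50% of the DDM1 peaks, and it ran from 2874 to 4993 when replicates were left out, with 4993 and 4480 from replicates 2 and 1 alone. A fold of at least 4 in every list gave 2508 regions, of which 430 (17.1%) overlapped the reported ones. That setting raised the threshold in the DDM1 and the ZmAGO4 lists together. It lost most reported regions, whose smallest DDM1 fold had an upper quartile of 3.72, and it admitted regions with weaker ZmAGO4 peaks. At a −log10 q of at least 5 in every list, 1910 of 2263 (84.4%) did. The median distance to ZmAGO4 was 1294 bp at that q, also when it was asked of the WT DDM1 lists alone, 1741 bp at a fold of 4, 1547.5 bp with peaks closer than 200 bp merged, 236 bp under the 50% rule, 1073 and 1098 bp without replicate 1 or 2 of every WT group, and 1049 to 1272.5 bp without single libraries. The median summit distance between paralogues, 61 bp over both replicates, became 57, 56, 42 and 68 bp for q, q in the DDM1 lists, fold and the 50% rule, and 58 to 64 bp with replicates left out (59 to 64 bp for single libraries). The median width became 682 bp at a fold of 4 and 708 bp under the 50% rule, 499 and 472 bp without replicate 1 or 2 of every WT group, and 530.5 to 589 bp without single libraries. The outer 40% share became 61.9% at a fold of 4, 34.6% for the outer 20%, and 53.4% to 56.5% with replicates left out. The mutant difference was −0.66 points at a fold of 4, −0.83 under the 50% rule, −1.24 over fold groups of equal weight, −0.37 (exact p = 0.5, lower in 2 of 4 libraries) with these weighted by the number of regions, −0.55 so weighted without regions of high background, and −1.89 to −1.04 with replicates left out. With the replicate block it was −1.48 (p = 0.5, exact), and the zmddm1a against zmddm1b difference was 0.396 (p = 1, exact), 0.139 to 0.653 with replicates left out and 0.20 without regions of high background. Without WT ZmDDM1B replicate 1 the mutant difference was −1.21 (exact p = 0.25). Leaving out high-background regions, the weighting of fold groups and the runs of the zmddm1a against zmddm1b difference under other WT lists were chosen after seeing the data. The shortness of the mutant lists and counts of 5 to 25 regions limit what the mutant comparison can show.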
